A study of Homo sapiens with 47 samples.

Results

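HES2 encodes a basic helix-loop-helix repressor of the hairy and enhancer of split family, whose members bind DNA as dimers and many of which act downstream of Notch. The gene lies head to head with ESPN, which encodes espin, an actin-bundling protein of microvilli and stereocilia, and 3 binding sites of estrogen receptor α (estrogen receptor binding sites, ERBSs) have been assigned to it, named HES2-1, HES2-2 and HES2-3 from the nearest to the farthest. Acetylation of histone H3 at lysine 27 (H3K27ac) marks active promoters and enhancers, and RNA polymerase II (RNAPII) is found at active promoters, at many active enhancers and along transcribed genes. The locus was described here by the 4 rows on chromosome 1 of a table of 23 regions (the 3 ERBSs and the promoter region HES2-p) and by every deposited peak of 47 libraries that touched a 45 kb window of hg19 running from downstream of HES2 into ESPN, which came to 341 of 959683 peaks and fell into 21 merged positions.

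All libraries came from Ishikawa cells, a human endometrial adenocarcinoma line, grown without hormone so that the estrogen receptor was not activated. The cells received a catalytically dead Cas9 fused either to 10 copies of the VP16 activation domain, dCas9-VP16(10x), or to the acetyltransferase core of p300, dCas9-p300(core), together with guide RNAs (gRNAs), and chromatin immunoprecipitation and sequencing (ChIP-seq) was then done for the HA tag of dCas9, for H3K27ac and for RNAPII. For H3K27ac and for RNAPII, each construct was combined with 5 gRNA sets in 2 libraries each: Pool 1, Pool 2 and Pool 3, which each held the gRNAs of 1 ERBS per gene, Adjacent, which held gRNAs beside the ERBSs of the other genes, and IL1RN, the promoter of an unrelated gene that served as the control. HA was measured with dCas9-VP16(10x) and all ERBS gRNAs together (2 columns), Adjacent (2) or IL1RN (1), and with dCas9-p300(core) and all ERBS gRNAs (2). No HES2 gRNA was in the Adjacent or IL1RN sets, and the gRNAs of the HES2 promoter were in none of these libraries.

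The assignment of the HES2 sites to the pools is in doubt. The list in the methods puts HES2-3 in Pool 1, HES2-1 in Pool 2 and HES2-2 in Pool 3, and every pool is therefore shown at every region, without the use of that list. The depth behind the values was small, with 348 to 6999 reads over the 23 regions in an H3K27ac library, 819 to 3472 in an RNAPII library and 468 to 38238 in an HA column. Each replicate pair was compared over the regions that its kind of gRNA did not target, 11 for the ERBS columns. Of 23 replicate pairs, 19 differed by more than sampling noise. The pair of HA columns of dCas9-VP16(10x) with ERBS gRNAs did not (chi-square 0.503 on 10 degrees of freedom, p = 0.99999). It was counted as 1 library in the tests of signal, though at the ERBSs, left out of this comparison, its columns differed in reads. The name of 1 of these columns does not mark duplicate reads as removed. The 3 other pairs that did not differ by more than sampling noise were kept as 2 libraries each, namely H3K27ac of dCas9-p300(core) Pool 1 (chi-square p = 0.766) and RNAPII of dCas9-VP16(10x) IL1RN (p = 0.773) and Adjacent (p = 0.108). Averaging any of them as 1 library left the HES2 calls at 0. Several other libraries need care. The second H3K27ac library labelled dCas9-VP16(10x) Pool 1 is named in the files with the letter used elsewhere for p300, the first library of dCas9-VP16(10x) Pool 3 had the 348 reads, and the first H3K27ac library of dCas9-VP16(10x) Adjacent names IL1RN as well in its title, so its control set is in doubt. As defining markers of the line, the promoters of KRT8, KRT18, PAX8 and ESR1 had an H3K27ac peak in all 20 libraries, EPCAM in 17 and CDH1 in 11, whereas PTPRC, CD3E and ALB, which mark blood cells and liver, had one in 0; VIM had one in 3 and COL1A1 in 12.

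The gRNAs show where the constructs were sent. They are printed 5′ to 3′ as the target sequence with the protospacer adjacent motif in capitals, and each matched hg19 at 1 place. The 4 gRNAs of HES2-1 fell within 256 bp, at chr1:6483433-6483688, 2 on each strand.
HES2peak1_136: agcaacaggctcactgcggcTGG
HES2peak1_237: acctgtggccgctggaatctGGG
HES2peak1_299: cgttggaaacccacctggctAGG
HES2peak1_369: ccatcacgcaggtcgccactAGG

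The 4 gRNAs of HES2-2 lay within 278 bp at chr1:6497141-6497418, in the second intron of ESPN, and all read the plus strand.
HES2peak2_111: tggtggaatactaacgagaaTGG
HES2peak2_267: tcagaccttctccggctggcTGG
HES2peak2_335: agcagagctcaccgcaggtcTGG
HES2peak2_366: ccagctgtgcagaccgccgtGGG

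The 4 gRNAs of HES2-3 lay within 212 bp at chr1:6507297-6507508, in intron 7 of ESPN, 2 on each strand.
HES2peak3_194: cagcacgcacacggccgagaTGG
HES2peak3_237_a: gggcccggacgctccacaaaGGG
HES2peak3_316: ggtcgtggcgtccgaacctcCGG
HES2peak3_383: tgcaggaaatgcgacaccgcAGG

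Each region of the table is 2000 bp long. HES2-p (chr1:6479442-6481442) covers the start of the main HES2 transcript (position 6479979, minus strand) with its first 2 exons, and the middle of the HES2-1 gRNAs lies 3581 bp upstream of that start. HES2-1 (chr1:6482596-6484596) is outside the main transcripts of both genes and ends 240 bp before the start of ESPN; a longer HES2 transcript begins at 6484730, and its first exon overlaps the end of HES2-1 and its first intron the rest. HES2-2 (chr1:6496329-6498329) and HES2-3 (chr1:6506685-6508685) are 17300 and 27423 bp upstream of HES2 at the middle of their gRNAs, and both lie inside ESPN. Shorter ESPN transcripts start inside both, the nearest to the region centres at 6497360 in HES2-2 and 6507411 in HES2-3, and a noncoding RNA on the minus strand has its first exon in HES2-3. GC content was 60.0% in HES2-1, 55.2% in HES2-2, 69.4% in HES2-3 and 67.8% in HES2-p, against a median of 53.2% over the 23 regions. The full estrogen response element (GGTCA, 3 bases of any kind, then TGACC, read on both strands) was in none of the 4. The nearest match had 3 mismatches of 10 set bases in HES2-1 and 2 in each of the others, and among the 23 regions 2 held the full element, 3 had 1 mismatch, 10 had 2 and 8 had 3.

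**Figure D1:**
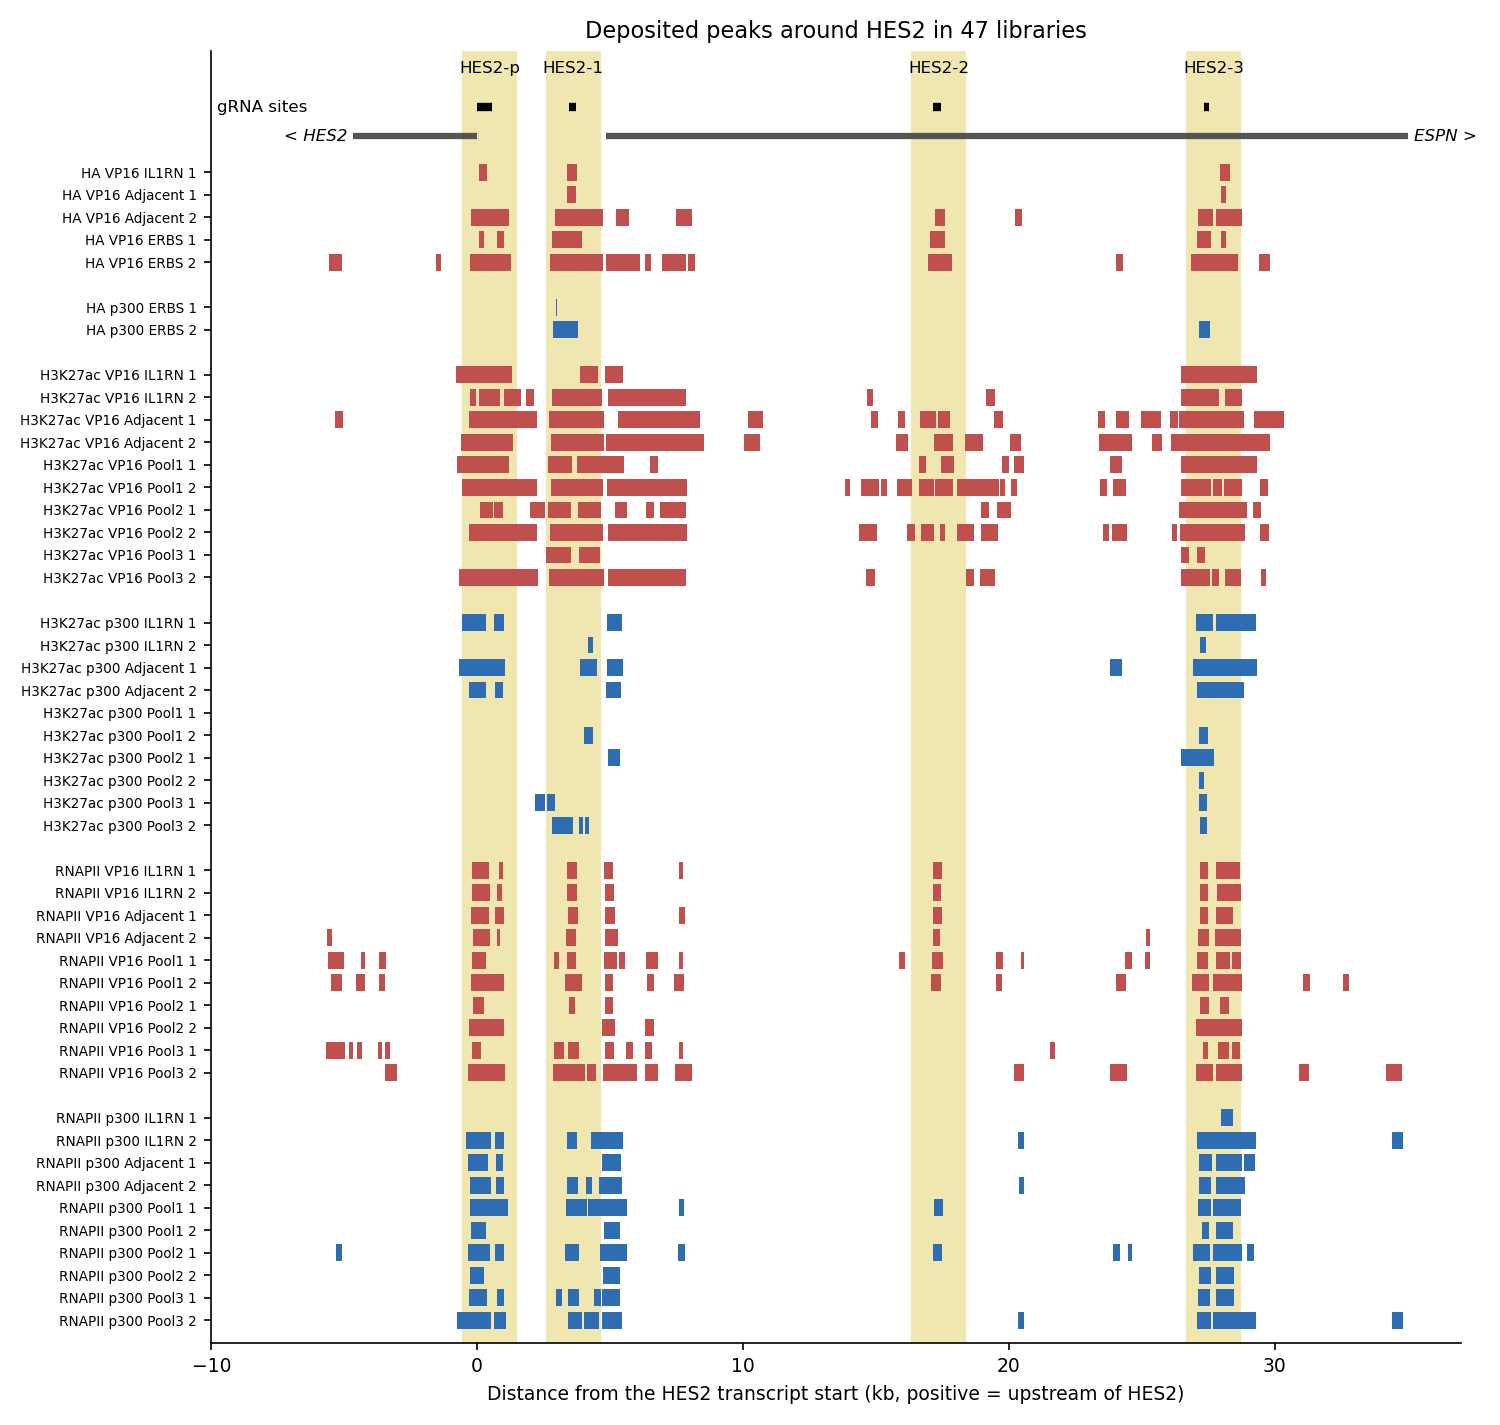
Deposited peaks in 47 libraries, drawn as bars by distance from the HES2 transcript start in kb, with red for dCas9-VP16(10x) and blue for dCas9-p300(core). Shaded bands are the 4 regions of 2000 bp, black marks the gRNA sites and grey the 2 genes. Peaks of H3K27ac and RNAPII recur at HES2-p, HES2-1, the ESPN start and HES2-3, and HES2-2 has few.

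The HA signal was higher at the 3 HES2 ERBSs with ERBS gRNAs than with IL1RN gRNAs, for both constructs, and 3 of these 6 differences passed the test, those of HES2-1 with both constructs and of HES2-2 with dCas9-VP16(10x). Values are read counts that the authors scaled by depth and then by control promoters. At HES2-1 the signal was 3.55 with IL1RN, 3.15 and 4.10 with Adjacent, 21.2 and 70.7 in the paired columns of dCas9-VP16(10x) with ERBS gRNAs, and 15.0 and 27.5 with dCas9-p300(core). No ERBS value overlapped the 3 others. At HES2-2 it was 0.431 with IL1RN, 0.806 and 0.466 with Adjacent, 4.51 and 7.60 with dCas9-VP16(10x) and ERBS gRNAs, and 0.789 and 3.04 with dCas9-p300(core). The lower dCas9-p300(core) library lay within the range of the controls, and it rested on 3 reads. At HES2-3 the signal was 2.31 with IL1RN, 1.85 and 2.78 with Adjacent, 8.42 and 19.1 with dCas9-VP16(10x) and ERBS gRNAs, and 6.05 and 15.2 with dCas9-p300(core). Again the values with ERBS gRNAs did not overlap those of the controls. How often such values stay apart at other regions was not tested, for HES2-1 or for HES2-3. HES2-p, which no gRNA targeted, had 2.34 with IL1RN, 2.06 and 2.60 with Adjacent, 3.54 and 3.47 with dCas9-VP16(10x) and ERBS gRNAs, and 2.11 and 2.32 with dCas9-p300(core). The paired dCas9-VP16(10x) columns, counted as 1 library, lay above the 5 others, and the dCas9-p300(core) libraries overlapped the controls.

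**Figure D2:**
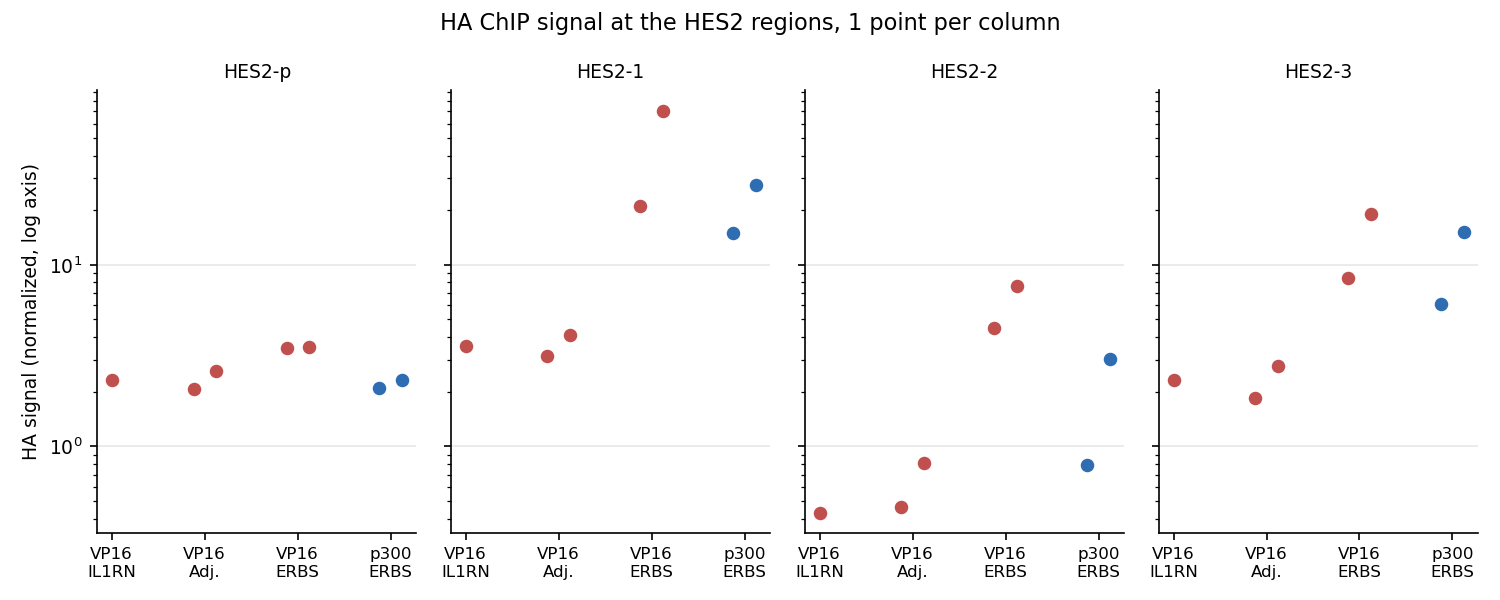
HA signal (normalized, log axis) at the 4 HES2 regions, 1 point per column, by construct and gRNA set. With ERBS gRNAs HES2-1 reaches 70.7 and HES2-p stays at or under 3.54.

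By limma on log2(value + 0.0742), with Benjamini-Hochberg adjustment over 23 regions and 2 contrasts, 3 of the 8 HES2 differences passed, beside 50.0% of all 46 region and contrast pairs (47.8% higher), 12 regions having been targeted. Without adjustment 5 of the 8 had a p under 0.05, beside 56.5%. All of the other 9 ERBSs passed with both constructs (limma adjusted p of 0.0450 or less). The targeted differences that did not pass were thus all at HES2. With dCas9-VP16(10x) the log2 difference from IL1RN was 3.67 ± 0.70 (SE, adjusted p = 0.0140) at HES2-1 and 3.60 ± 1.07 (SE, adjusted p = 0.0450) at HES2-2, and that of HES2-3 was 2.54 ± 0.86 (SE, adjusted p = 0.0674), which did not pass. With dCas9-p300(core) it was 2.49 ± 0.61 (SE, adjusted p = 0.0281) at HES2-1, 1.70 ± 0.93 (SE, adjusted p = 0.203) at HES2-2 and 2.02 ± 0.75 (SE, adjusted p = 0.0823) at HES2-3. At HES2-p the differences were 0.57 ± 0.57 (SE, adjusted p = 0.481) and -0.08 ± 0.49 (SE, adjusted p = 0.931) in the same order, and neither passed. These calls rest on 1 IL1RN library, and dCas9-p300(core) had no control library of its own. Centring each library on the other 19 regions, 9 of which were also targeted, lowered the log2 differences of dCas9-VP16(10x) by 2.14 and those of dCas9-p300(core) by 2.06 and left no ERBS called at HES2. The sign then turned at HES2-p with dCas9-VP16(10x) (-1.57) and at HES2-2 (-0.36) and HES2-3 (-0.04) with dCas9-p300(core), and HES2-p with dCas9-p300(core) was the HES2 difference that passed (-2.13, limma adjusted p = 0.0384).

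By difference from IL1RN the HES2 sites stood in the lower part of the 12 ERBSs. They ranked 7, 8 and 12 with dCas9-VP16(10x) for HES2-1, HES2-2 and HES2-3, and 9, 12 and 11 with dCas9-p300(core), while the other 9 ERBSs had a median log2 difference of 4.14 (2.92 to 5.04) and 3.96 (2.33 to 4.84). By level the order was another one. In each HA column HES2-1 was between rank 1 and 3 of the 12, HES2-3 between 3 and 9 and HES2-2 between 7 and 12.

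The paired columns differed in the height of these values, and whether they hold the same reads was not tested. The column not marked as having duplicates removed held 7211 reads at HES2-1 and 354 at HES2-p. The other column had 25.3% and 86.2% as many there. The shares were 50.2% at HES2-2 and 37.2% at HES2-3. The share was thus smaller where the signal was higher, and what part of this comes from duplicates was not tested. Either column alone gave the same direction at the 3 ERBSs. The calls differed, however. With the column from which duplicates had been removed alone, HES2-2 no longer passed (3.18, limma adjusted p = 0.0682), and with the other column alone HES2-3 passed (3.01, limma adjusted p = 0.0396).

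HA peaks were called at HES2-1 in all 7 HA peak lists, at HES2-3 in 6, at HES2-p in 4 and at HES2-2 in 3. In these and later HA peak counts, dCas9-VP16(10x) with ERBS gRNAs has 2 lists, of 6184 and 30740 peaks, though its columns were tested as 1 library. The summits of the strong peaks lay at the gRNAs. With dCas9-VP16(10x) and ERBS gRNAs the summits at HES2-1 were 84 and 44 bp on the HES2 side of the middle of the gRNA sites (fold enrichment 50.8 and 104), those at HES2-2 were 133 and 129 bp on the other side (23.8 and 98.7), and the highest at HES2-3 were 101 and 77 bp on the HES2 side (24.2 and 165). With dCas9-p300(core) the summits at HES2-1 were farther out, on the HES2 side, 610 bp in a peak of 60 bp (9.46) and somewhat nearer in the other library (17.3), and 1 library had a peak at HES2-3 (18.7), 101 bp to the HES2 side. Only 154 and 141 peaks were called in the whole genome in these 2 libraries. Without HES2 gRNAs, peaks at HES2-1 had an enrichment of 10.3 with IL1RN and 6.92 and 22.1 with Adjacent. At HES2-3 the IL1RN library and the first Adjacent library had their summits 707 and 692 bp beyond the gRNA sites, on the side away from HES2 (12.4 and 7.37). A weak peak of 6.33 stood at the same place, 682 bp out, with ERBS gRNAs. With no HES2 gRNA, 1 Adjacent library nonetheless had an HA peak over the gRNA sites of HES2-3. At HES2-2, too, 1 Adjacent library had an HA peak over the gRNA sites.

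H3K27ac was present at the locus in the IL1RN and Adjacent libraries, with the lowest medians at HES2-2. With dCas9-VP16(10x) the medians of these 4 libraries were 3.49 at HES2-1, 0.584 at HES2-2, 3.21 at HES2-3 and 2.52 at HES2-p. With dCas9-p300(core) they were 0.754, 0.113, 4.43 and 1.67 in the same order, so HES2-1 was under HES2-p there. The ranges of the constructs at HES2-1, 0.904 to 4.04 and 0.541 to 2.09, overlapped. Over all 20 libraries the signal had a median of 2.17 at HES2-1 (0.541 to 5.48), 0.446 at HES2-2 (0.0852 to 1.65), 2.33 at HES2-3 (1.24 to 5.74) and 1.80 at HES2-p (0.506 to 3.38). The unit is the authors' read count scaled by depth and by the depth in peaks, and the regions are of equal length, so levels can be set side by side. Among the 12 ERBSs HES2-1 and HES2-3 both had a median rank of 2 and HES2-2 of 7. The ranges of HES2-1, HES2-3 and HES2-p overlapped widely.

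The 20 libraries divided by the identifier in their peak names. In 11 of them the names held a numeric identifier, and in 9 there was none. HES2-3 had a median of 3.86 in the first kind and 1.80 in the second, HES2-1 of 1.46 and 3.48, HES2-2 of 0.262 and 0.651 and HES2-p of 1.51 and 2.05. The control libraries alone showed the same at HES2-3, with 3.86 to 5.74 in 5 libraries with the identifier and 1.80 to 2.55 in 3 without. Each pool and each IL1RN set had its first library with the identifier and its second without, so each pool could be compared with IL1RN within each kind as well as together. What the identifier stands for is not given in the sources used here.

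At HES2-1, H3K27ac was highest with Pool 3 for both constructs. With dCas9-VP16(10x) the signal was 0.904 and 3.29 with IL1RN, 3.68 and 4.04 with Adjacent, 1.81 and 4.00 with Pool 1, 2.31 and 3.48 with Pool 2 and 4.35 and 5.48 with Pool 3. The dCas9-p300(core) values were 0.541 and 2.09 with IL1RN, 0.895 and 0.614 with Adjacent, 1.46 and 1.96 with Pool 1, 1.01 and 2.13 with Pool 2 and 2.21 and 5.15 with Pool 3. The Pool 3 libraries were the highest 2 of 10 in each construct. With dCas9-p300(core) their lower value, 2.21, was close to the next library at 2.13. For this and the later rankings, how often both libraries of a pool stand highest at other regions was not tested. Within each kind of library the fold over IL1RN was 4.82 and 1.67 with dCas9-VP16(10x) and 4.09 and 2.46 with dCas9-p300(core) for Pool 3, against 2.56 and 1.06 and 1.86 and 1.02 for Pool 2, the pool that the list gives for this site. Pool 1 had 2.00 and 1.21 and 2.70 and 0.939. The folds against the first IL1RN library were larger than those against the second in each of these 6 cases.

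The difference at HES2-1 did not pass the test across all regions. By limma on log2(value + 0.00415), adjusted over 23 regions and 8 contrasts, Pool 3 differed from IL1RN by 1.50 ± 0.86 (SE, adjusted p = 0.527) on the log2 scale with dCas9-VP16(10x) and by 1.66 ± 0.86 (SE, adjusted p = 0.409) with dCas9-p300(core). The size rests on the IL1RN libraries, since without the first of them it was 0.57 and 0.69, and without the second 2.43 and 2.63. The Adjacent set, which held no HES2 gRNA, differed by 1.16 ± 0.86 (SE, adjusted p = 0.612) and -0.52 ± 0.86 (SE, adjusted p = 0.843). Against all other libraries, Pool 3 was higher by 1.19 on the log2 scale (exact permutation test, two-sided, p = 0.00889, adjusted p = 0.107), adjusted over 24 tests; the smallest p these arrangements can give is 0.000494. With the exchange of libraries kept within identifier the adjusted p was 0.080, and with libraries centred on the other 19 regions it was 0.0119. Without the library of 348 reads the difference was 1.27 (adjusted p = 0.178, exact permutation test).

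The peak calls at HES2-1 differed in place. With dCas9-p300(core), an H3K27ac summit on the HES2 side of the gRNA middle was called in both Pool 3 libraries (746 and 243 bp from it) and in 0 of the other 8. In 3 of those 8 a summit lay on the ESPN side, 547 to 697 bp away, and 1 Pool 3 library had a summit on that side as well. Among the 8, any peak at HES2-1 was called in 1 library each of Adjacent, IL1RN and Pool 1 and in 0 of Pool 2. How often such a split arises at other regions was not tested. With dCas9-VP16(10x), 8 of 10 libraries had a summit on the HES2 side, whatever the pool, IL1RN included. The number of peaks in a whole library moved with the construct, 5322 to 32052 (median 25025) with dCas9-VP16(10x) and 1805 to 24280 (median 6143) with dCas9-p300(core), and the absence of a call in a library with few peaks does not show the absence of the mark. The 2 Pool 3 libraries of dCas9-p300(core), with 5599 and 1805 peaks, were under the median of that construct.

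**Figure D3:**
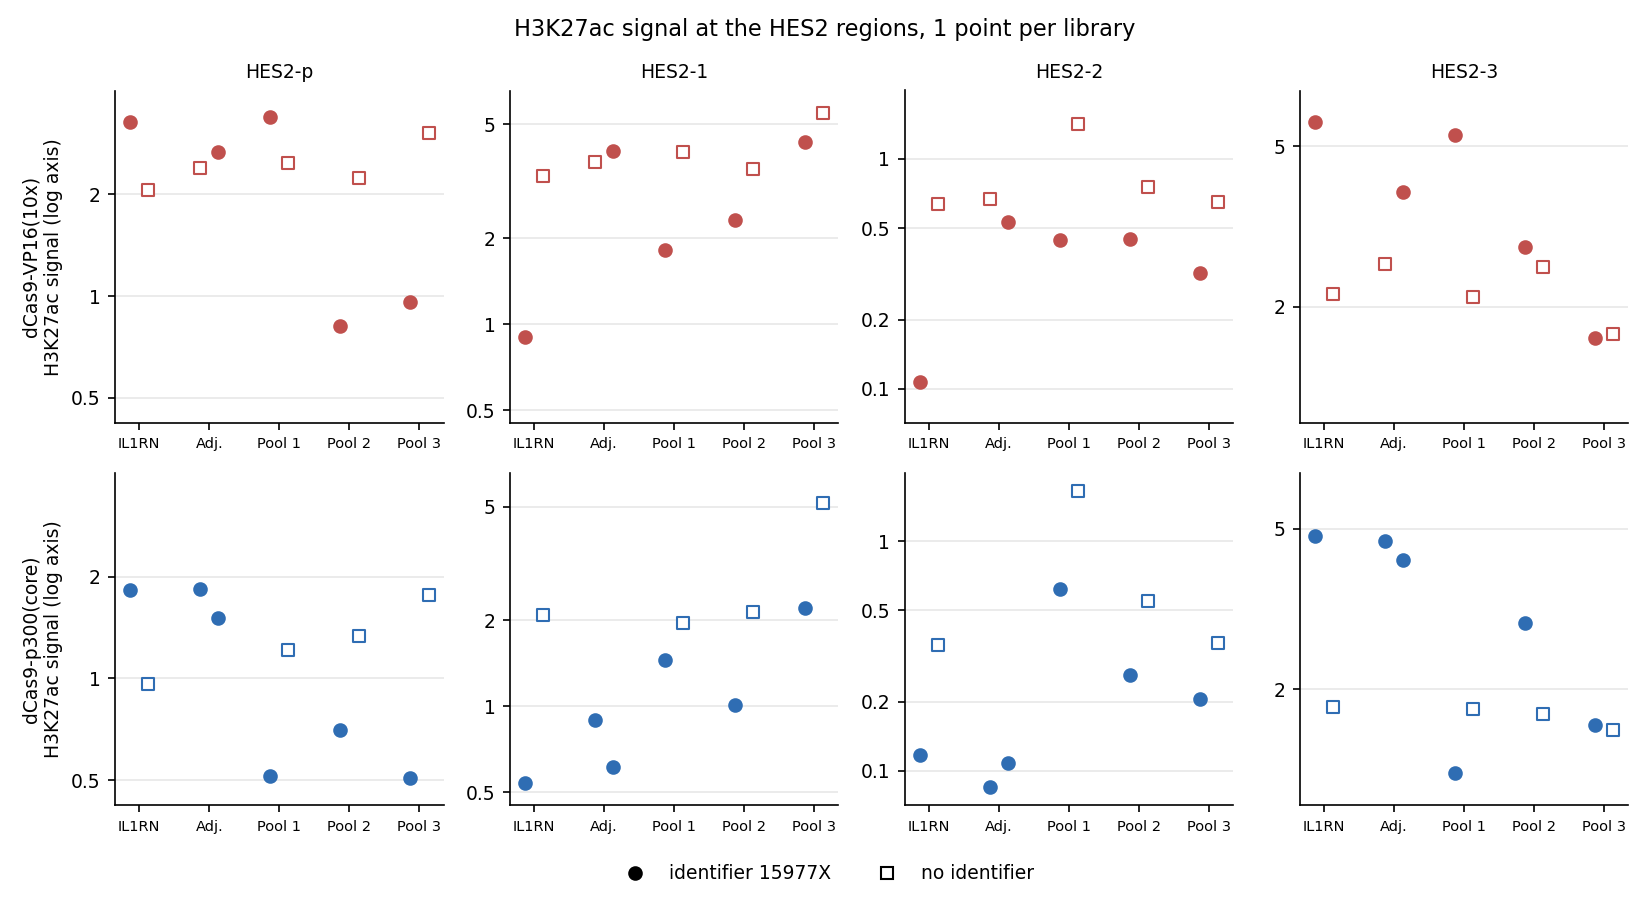
H3K27ac signal (normalized, log axis) at the 4 regions by gRNA set, 1 point per library, with dCas9-VP16(10x) above and dCas9-p300(core) below. Circles are libraries whose peak names carry an identifier and squares those with none. Pool 3 is highest at HES2-1 in both constructs, and at HES2-2 Pool 1 is highest with dCas9-p300(core).

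At HES2-2, H3K27ac was low in most libraries and highest with Pool 1, most clearly with dCas9-p300(core). With dCas9-p300(core) the signal was 0.118 and 0.354 with IL1RN, 0.0852 and 0.108 with Adjacent, 0.619 and 1.65 with Pool 1, 0.262 and 0.549 with Pool 2 and 0.206 and 0.360 with Pool 3. Both Pool 1 libraries exceeded the other 8, which reached 0.549. With dCas9-VP16(10x) it was 0.107 and 0.635 with IL1RN, 0.669 and 0.533 with Adjacent, 0.442 and 1.41 with Pool 1, 0.450 and 0.755 with Pool 2 and 0.320 and 0.651 with Pool 3. Here 1 Pool 1 library was the highest of 10 and the other ranked 8, and the high one is the library with the doubtful name. Reads at HES2-2 ranged from 8 to 394 per library, so that the lowest values carry large counting error. The folds over IL1RN within each kind of library were 5.25 and 4.67 with dCas9-p300(core) and Pool 1, 2.23 and 1.55 with Pool 2 and 1.75 and 1.02 with Pool 3, the pool that the list gives for this site. With dCas9-VP16(10x) they were 4.14 and 2.23, 4.22 and 1.19 and 3.00 and 1.03.

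For dCas9-p300(core) with Pool 1 the log2 difference from IL1RN at HES2-2 was 2.28 ± 0.95 (SE, adjusted p = 0.253) by limma. It was the only 1 of the 32 HES2 differences with an unadjusted p under 0.05, beside 15.2% of all 184 pairs, and none of the 184 passed after adjustment (0.00%). With the identifier as a block the same difference was 2.28 ± 0.60 (SE, adjusted p = 0.00703) by limma, and it passed; 20.1% of all 184 pairs then did, and 1 of the 32 at HES2. Without the first IL1RN library of dCas9-p300(core) the difference was 1.505 and without the second 3.06, neither past the threshold. With both non-HES2 sets as control it was 2.81 (adjusted p = 0.0415). For dCas9-VP16(10x) with Pool 1 it was 1.58 ± 0.95 (SE, adjusted p = 0.580), and with the block 1.58 ± 0.60 (SE, adjusted p = 0.0662). Against all other libraries of both constructs, Pool 1 was higher by 1.51 on the log2 scale (exact permutation test, two-sided, p = 0.0138, adjusted p = 0.111). Without the library with the doubtful name that difference was 1.096 (adjusted p = 0.494, exact permutation test). An H3K27ac peak overlapped HES2-2 in 5 of 20 libraries, all of dCas9-VP16(10x): both of Adjacent, both of Pool 1 and 1 of Pool 2. Both Pool 1 libraries of dCas9-p300(core), with the highest table values of that construct, had none.

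At HES2-3, H3K27ac was high without any HES2 gRNA, and no pool was higher than the other libraries by the test. With dCas9-VP16(10x) the signal was 5.74 and 2.15 with IL1RN, 2.55 and 3.86 with Adjacent, 5.33 and 2.12 with Pool 1, 2.81 and 2.52 with Pool 2 and 1.68 and 1.71 with Pool 3. With dCas9-p300(core) it was 4.79 and 1.80 with IL1RN, 4.67 and 4.18 with Adjacent, 1.24 and 1.78 with Pool 1, 2.91 and 1.73 with Pool 2 and 1.63 and 1.58 with Pool 3. The highest value was that of an IL1RN library in each construct, and Pool 3 ranked 9 and 10 of 10 with dCas9-VP16(10x) and 8 and 9 with dCas9-p300(core). Pool 3 differed from all other libraries by -0.78 on the log2 scale (exact permutation test, two-sided, p = 0.0311, adjusted p = 0.187). Within identifier the folds over IL1RN were 0.293 and 0.796 and 0.341 and 0.879 for Pool 3 with the constructs in the same order. Those of Pool 1, the listed pool, were 0.929 and 0.987 and 0.258 and 0.990, and those of Pool 2 were 0.491 and 1.17 and 0.609 and 0.960. The fitted log2 differences of the 3 pools from IL1RN ran from -1.05 to -0.06, and none passed. A peak was called at HES2-3 in 19 of 20 libraries, with a fold enrichment of up to 81.4. The exception, the first library of dCas9-p300(core) Pool 1, had no peak in the whole window and 6687 in the genome.

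At the promoter region HES2-p, which no pool targeted, H3K27ac did not separate the pools. With dCas9-VP16(10x) the signal was 3.28 and 2.05 with IL1RN, 2.39 and 2.66 with Adjacent, 3.38 and 2.47 with Pool 1, 0.814 and 2.23 with Pool 2 and 0.959 and 3.04 with Pool 3. The dCas9-p300(core) values were 1.83 and 0.960 with IL1RN, 1.84 and 1.51 with Adjacent, 0.515 and 1.21 with Pool 1, 0.704 and 1.33 with Pool 2 and 0.506 and 1.76 with Pool 3. The range of every pool overlapped that of IL1RN in both constructs. Within each kind of library the folds over IL1RN differed. With dCas9-VP16(10x) they were 1.03 and 1.20 for Pool 1, 0.248 and 1.08 for Pool 2 and 0.292 and 1.48 for Pool 3. With dCas9-p300(core) they were 0.282 and 1.26, 0.385 and 1.39 and 0.276 and 1.84. Except for Pool 1 with dCas9-VP16(10x), the first library fell under IL1RN and the second exceeded it. The fits average over both kinds. The fitted differences of the 3 pools ran from -0.94 to 0.15, with adjusted p of 0.694 or more. Peaks at HES2-p were called in 12 of 20 libraries, 9 of them of dCas9-VP16(10x).

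**Figure D4:**
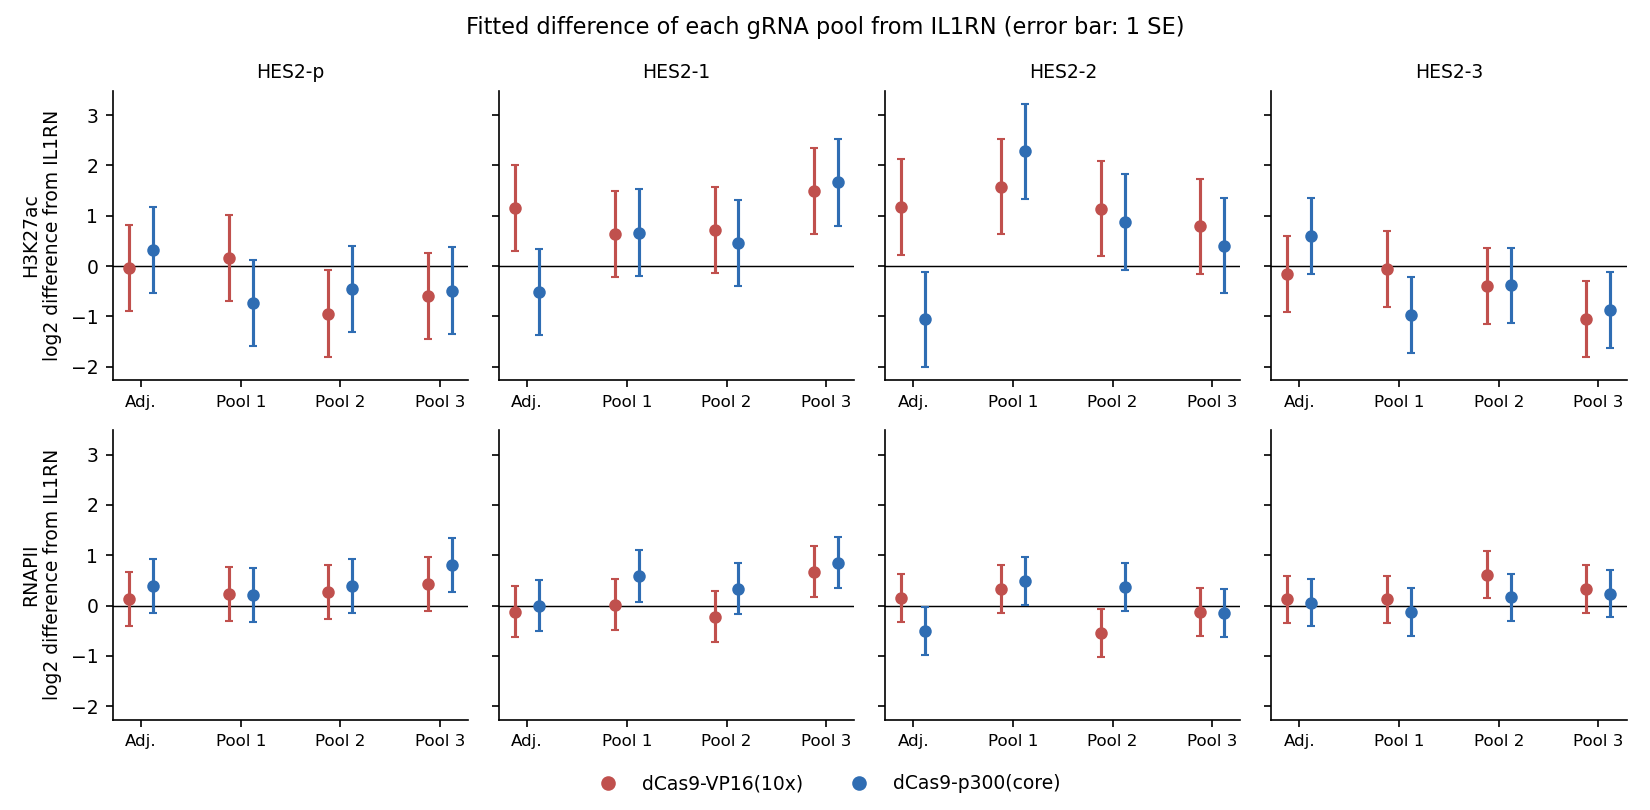
Log2 difference of each gRNA set from IL1RN at the 4 regions, by limma, for H3K27ac (above) and RNAPII (below), red for dCas9-VP16(10x) and blue for dCas9-p300(core); bars are 1 SE. The largest are H3K27ac at HES2-2 with Pool 1 and at HES2-1 with Pool 3, and none passed the adjusted threshold in this fit.

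RNAPII was found at all 4 regions, at similar levels at HES2-1, HES2-3 and HES2-p and lower at HES2-2. The median signal over 20 libraries was 1.25 at HES2-1 (0.511 to 2.50), 0.308 at HES2-2 (0.0932 to 0.585), 1.57 at HES2-3 (0.945 to 2.73) and 1.25 at HES2-p (0.452 to 1.95). HES2-3 ranked 1 or 2 among the 12 ERBSs in every library, HES2-1 between 1 and 4 and HES2-2 between 6 and 8.

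With dCas9-VP16(10x), RNAPII at HES2-1 was 1.33 and 1.34 with IL1RN, 1.36 and 1.096 with Adjacent, 1.45 and 1.25 with Pool 1, 1.32 and 0.986 with Pool 2 and 2.50 and 1.81 with Pool 3. The Pool 3 libraries were the highest 2 of the 10, without overlap, though how often that arises at other regions was not tested. With dCas9-p300(core) it was 0.582 and 0.718 with IL1RN, 0.539 and 0.768 with Adjacent, 1.58 and 0.600 with Pool 1, 1.30 and 0.511 with Pool 2 and 1.24 and 1.11 with Pool 3. The Pool 3 libraries ranked 3 and 4, under 1 library each of Pool 1 and Pool 2, and above all 4 libraries with no HES2 gRNA. Against all other libraries Pool 3 was higher by 0.69 on the log2 scale (exact permutation test, two-sided, p = 0.00889, adjusted p = 0.107), which did not pass after adjustment. Without the first dCas9-p300(core) Pool 1 library the difference was 0.77 and passed (adjusted p = 0.0444, exact permutation test), as it did at 0.91 after centring on the other 19 regions (adjusted p = 0.0474). Against IL1RN the log2 difference of Pool 3 was 0.67 ± 0.51 (SE, adjusted p = 0.999) with dCas9-VP16(10x) and 0.85 ± 0.51 (SE, adjusted p = 0.999) with dCas9-p300(core), by limma on log2(value + 0.00395).

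RNAPII at HES2-2 with dCas9-VP16(10x) was 0.442 and 0.423 with IL1RN, 0.505 and 0.457 with Adjacent, 0.585 and 0.510 with Pool 1, 0.376 and 0.232 with Pool 2 and 0.484 and 0.322 with Pool 3. The Pool 1 libraries were the highest 2, and the second was close to the first Adjacent library. The dCas9-p300(core) values were 0.202 and 0.138 with IL1RN, 0.0932 and 0.146 with Adjacent, 0.352 and 0.157 with Pool 1, 0.295 and 0.160 with Pool 2 and 0.137 and 0.164 with Pool 3. Here 1 Pool 1 library was the highest and the other ranked 6. Pool 1 exceeded the other libraries by 0.51 on the log2 scale (exact permutation test, two-sided, p = 0.0479, adjusted p = 0.230). A peak at HES2-2 was called in 8 libraries, 6 of them of dCas9-VP16(10x), and in these 6 the sets were IL1RN, Adjacent and Pool 1, both libraries of each.

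At HES2-3 RNAPII with dCas9-VP16(10x) was 1.50 and 1.45 with IL1RN, 1.54 and 1.67 with Adjacent, 1.69 and 1.53 with Pool 1, 1.86 and 2.73 with Pool 2 and 1.53 and 2.22 with Pool 3. Pool 2 ranked 1 and 3. With dCas9-p300(core) it was 0.945 and 2.41 with IL1RN, 1.58 and 1.55 with Adjacent, 1.73 and 1.102 with Pool 1, 1.85 and 1.53 with Pool 2 and 1.37 and 2.32 with Pool 3, where the 2 IL1RN libraries were the highest and the lowest of the 10. The difference of Pool 2 from all other libraries was 0.29 on the log2 scale (exact permutation test, two-sided, p = 0.165, adjusted p = 0.567). Every library had an RNAPII peak at HES2-3.

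RNAPII at HES2-p bears most directly on the gene. With dCas9-VP16(10x) it was 1.05 and 1.14 with IL1RN, 1.27 and 1.13 with Adjacent, 1.33 and 1.23 with Pool 1, 1.26 and 1.37 with Pool 2 and 1.29 and 1.69 with Pool 3. All 6 pool libraries exceeded both IL1RN libraries, and the second Pool 3 library was the highest of the 10. The first Adjacent library (1.27), with no HES2 gRNA, also exceeded both IL1RN libraries, and the second (1.13) did not. The first also lay above 1 library each of Pool 1 (1.23) and Pool 2 (1.26), so the pools were not set apart from Adjacent. How often pools exceed IL1RN in this way at other regions was not tested. The dCas9-p300(core) values were 0.452 and 1.68 with IL1RN, 1.13 and 1.16 with Adjacent, 1.43 and 0.711 with Pool 1, 1.35 and 0.971 with Pool 2 and 1.20 and 1.95 with Pool 3. The IL1RN libraries, of 819 and 2910 reads, were the lowest and the second highest, so no pool stood apart from them. Pool 3 differed from all other libraries by 0.42 on the log2 scale (exact permutation test, two-sided, p = 0.0953, adjusted p = 0.381), and the fitted differences from IL1RN ran from 0.21 to 0.80. An RNAPII peak was called at HES2-p in 19 of 20 libraries, the exception being the first IL1RN library of dCas9-p300(core).

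**Figure D5:**
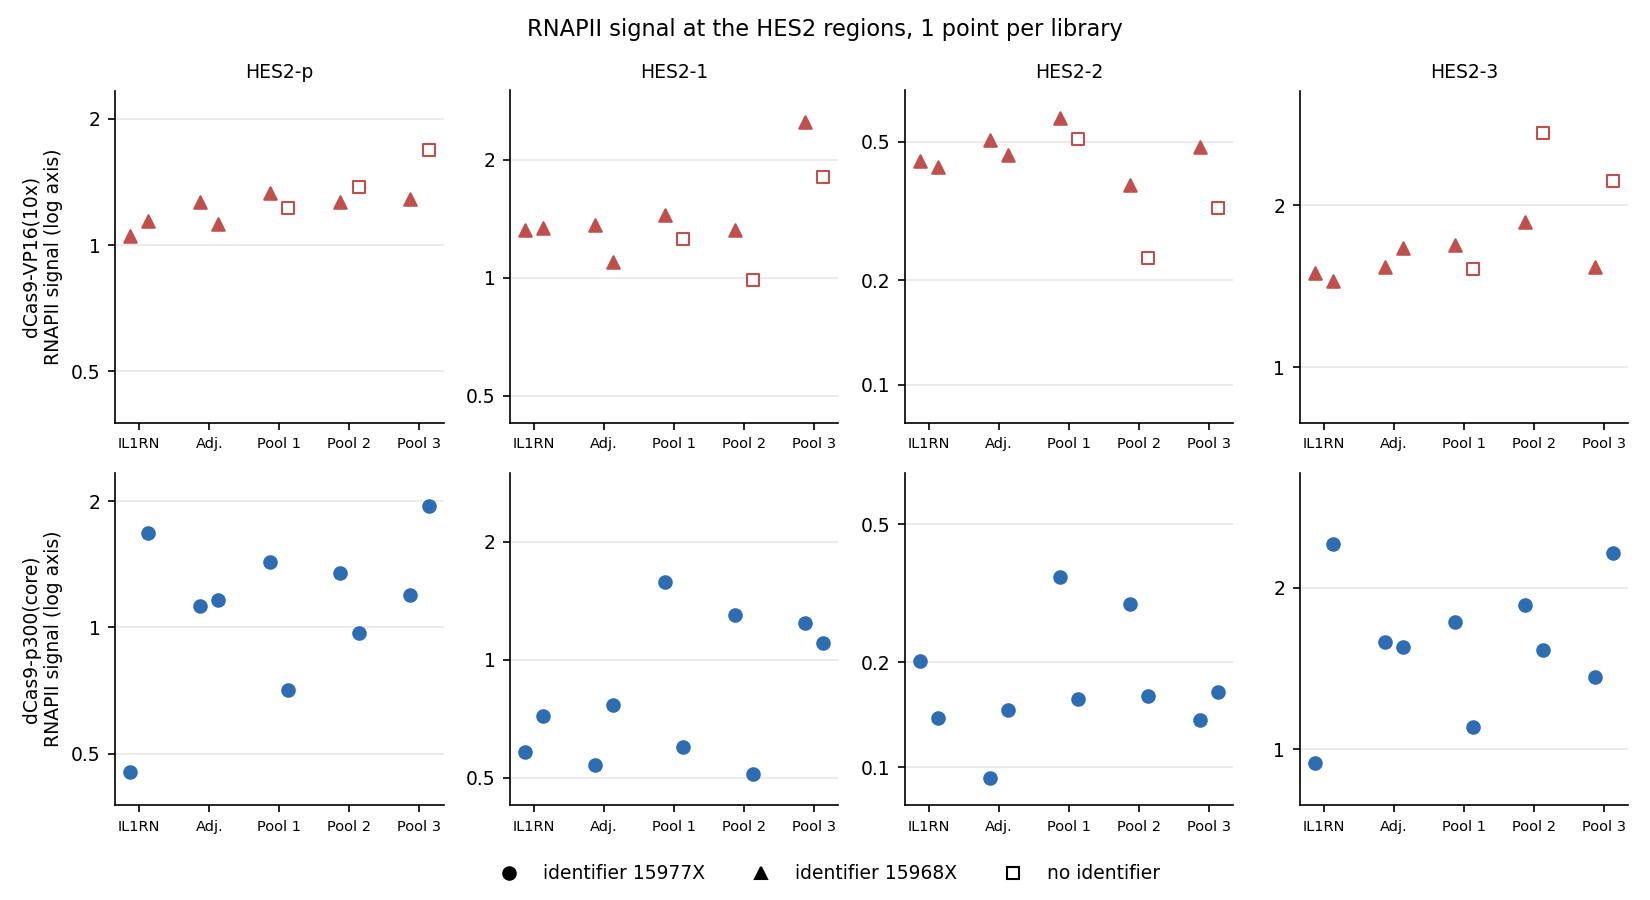
RNAPII signal (normalized, log axis) at the 4 regions by gRNA set, 1 point per library, with dCas9-VP16(10x) above and dCas9-p300(core) below. Marker shapes give the identifier in the peak names, as in the key. With dCas9-VP16(10x), Pool 3 is highest at HES2-1 and Pool 1 at HES2-2; with dCas9-p300(core) the IL1RN libraries lie far apart at HES2-3 and HES2-p.

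None of the 32 HES2 differences of RNAPII from IL1RN passed, beside 1.09% of all 184 pairs, and none had an unadjusted p under 0.05, beside 3.26%. In RNAPII the identifier also marks the construct, since all dCas9-p300(core) libraries carried one identifier and those of dCas9-VP16(10x) another or none, and levels between constructs cannot be told apart from it. With dCas9-VP16(10x) both IL1RN libraries and the first library of each pool carried the identifier, and the second library of each pool had none. The folds of the first libraries over the like-numbered IL1RN library, within the identifier, were 1.27, 1.20 and 1.23 at HES2-p for Pools 1 to 3, and those of the second, across identifiers, were 1.08, 1.21 and 1.48. At HES2-1 with Pool 3 they were 1.89 and 1.35, and at HES2-2 with Pool 1 they were 1.33 and 1.21. For the pool test, 5 of the 24 sets at HES2 had an exact p under 0.05 (HES2-1 with Pool 3 and HES2-2 with Pool 1 in both antibodies, and HES2-3 with Pool 3, lower, in H3K27ac), beside 15.2% of 138 sets over the 23 regions (21.7% in H3K27ac and 8.70% in RNAPII), and 0 passed after adjustment. No difference between the constructs was detected. For H3K27ac the difference between dCas9-VP16(10x) and dCas9-p300(core) in their change from IL1RN was -0.16 ± 1.21 (SE, adjusted p = 0.991) at HES2-1 with Pool 3 and -0.70 ± 1.34 (SE, adjusted p = 0.991) at HES2-2 with Pool 1, by limma. For RNAPII they were -0.18 ± 0.72 (SE, adjusted p = 0.999) and -0.15 ± 0.67 (SE, adjusted p = 0.999). With SEs of that size, sizeable differences could have been missed. None of the 24 such contrasts at HES2 had an unadjusted p under 0.05.

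Among the 12 ERBSs, the highest difference of any pool from all other libraries in H3K27ac was 1.19 at HES2-1 (rank 11), 1.51 at HES2-2 (rank 10) and -0.08 at HES2-3 (rank 12), so the 3 HES2 sites had the smallest. In RNAPII they ranked 4, 9 and 11, with 0.69, 0.51 and 0.29.

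Outside the 4 regions, peaks recurred at the ESPN start. H3K27ac peaks also reached between HES2-2 and HES2-3 in 12 of 20 libraries and beyond HES2-3 in 12, and RNAPII peaks in 9 and 12. An H3K27ac peak covered or closely followed the ESPN start in 13 of 20 libraries, 9 of dCas9-VP16(10x) and 4 of dCas9-p300(core), and an RNAPII peak in 19. Between HES2-p and HES2-1 RNAPII had no peak in any library. Longer HES2 transcripts run past the end of the main one at 6475292. Beyond that end, the merged position at chr1:6474289-6475026 had RNAPII peaks in 5 libraries. With these transcripts taken as HES2, RNAPII peaks more than 3 kb past its start were called in 6 of 20 libraries. Both Pool 1 libraries of dCas9-VP16(10x) had them (6 peaks, fold enrichment 4.10 to 8.55), and so did both Pool 3 libraries (6 peaks, 6.13 to 9.0), 1 Adjacent library (5.79) and 1 Pool 2 library of dCas9-p300(core) (7.95). Neither Pool 2 library nor IL1RN library of dCas9-VP16(10x) had one. The enrichments lay at the 0.815 to 57.5 percentile of their libraries, and the Pool 2 libraries, with 16041 and 19772 peaks, were among those with the fewest in that construct. The window held 4 to 19 RNAPII peaks with dCas9-VP16(10x) and 1 to 12 with dCas9-p300(core). The same Pool 1 (19 and 15) and Pool 3 (16 and 13) libraries of dCas9-VP16(10x) had the most, so their calls were more numerous across the window. Pool 2 had 5 and 4 there, IL1RN 8 and 7 and Adjacent 8 and 9.

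HES2 was one of several family members with a mark at the promoter. Within 1 kb of any annotated start, an H3K27ac peak was found for HES2 in 17 of 20 libraries, for HES4 in 16, HES6 in 13, HES1 in 12, HEY1 in 8, HEY2 and HEYL in 7, and for HES3, HES5 and HES7 in 0, and 47.5% of protein-coding genes had one in 10 or more libraries. The count for HES2 includes the start it nearly shares with ESPN, and 12 libraries had one at HES2-p itself. RNAPII peaks stood at HES1, HES4 and HES6 in 20 libraries, at HES2 in 19, HEYL in 18, HEY2 in 16, HEY1 in 15, HES3 in 10, HES5 in 4 and HES7 in 3, beside 62.2% of genes in 10 or more libraries. HA peaks stood at HES2 in 5 of 7 peak lists, beside 24.8% of genes with one in most of them. Of the neighbours, ESPN had H3K27ac in 19 libraries and RNAPII in 20. These counts include the ESPN starts inside HES2-2 and HES2-3. At or closely after its main start, H3K27ac was called in 13 libraries and RNAPII in 19. The other neighbours had H3K27ac in 0 (HES3) to 15 (KLHL21), and RNAPII in 20 for ACOT7, TNFRSF25, PLEKHG5, NOL9, TAS1R1, ZBTB48, KLHL21, RNF207 and RPL22, 18 for ICMT, 10 for HES3 and 7 for GPR153.

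Across the 20 libraries, which share their scaling and a division by identifier, the HES2 regions did not all move together. For RNAPII the identifier also follows the construct, and levels differed with it. The median with dCas9-VP16(10x) and dCas9-p300(core) was 1.33 and 0.743 at HES2-1 and 0.450 and 0.159 at HES2-2. How much of each correlation comes from these divisions was not tested. In H3K27ac, Spearman's rho between HES2-1 and HES2-2 was 0.57, between HES2-1 and HES2-3 -0.55 and between HES2-3 and HES2-p 0.51. The rows most like HES2-1 were MMP17-3 (0.76), FHL2-2 (0.62) and HES2-2, those most like HES2-2 were CISH-2 (0.70), MMP17-2 (0.69) and FHL2-2 (0.68), and those most like HES2-3 were the promoter regions CISH-p (0.78), FHL2-p (0.73) and HES2-p. HES2-p was most like CISH-p (0.61), FHL2-p (0.52) and HES2-3. In RNAPII, HES2-3 and HES2-p were the most alike (0.80), HES2-1 was most like HES2-2 (0.71), MMP17-3 (0.67) and the IL1RN promoter (0.58), and HES2-2 was most like the IL1RN promoter (0.78), CISH-2 (0.77) and the intron region of CISH (0.74).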

How the data were processed

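ChIP-seq libraries of Ishikawa cells were analysed from the deposited table of 23 regions and the deposited peak files. Per the submitters' processing notes, reads were aligned to hg19 with Bowtie 1.1.2 and peaks were called with MACS2 2.1.0.20140616, with SAMtools and bedtools also named. The authors made the signal of the table by scaling read counts by depth and then by the average depth in overlapping peaks (H3K27ac, RNAPII) or in control promoters (HA). The deposited peak files give the fold enrichment and the −log10 p and q values of each library. No per-sample column was left unused (0 columns).

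Differences were fitted with limma 3.58.1 (R 4.3.3) on log2 of the signal plus 1 pseudocount per antibody, over all regions, with Benjamini-Hochberg adjustment and a threshold of 0.05. Pools were also compared with all other libraries by exact permutation within construct (Python 3.11.15, scipy 1.17.1). Both were tried on simulated data, with shifts larger than the H3K27ac and RNAPII differences found at HES2. Those trials do not show what can be detected at the sizes seen here. Peaks were counted at an overlap of at least 1 bp and were not tested. All 4 HES2 rows are named, with the 3 rows most like each by Spearman's rho. The members and gene lists were chosen with earlier results of these data known. The labels do not say that replicates came from separate cultures, so p-values measure the spread between libraries, which may be technical. Alternatives are given in the closing section.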

Additional observations from a re-analysis of the deposited data

How the results depend on the processing

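For HA, 3 HES2 differences were called. With IL1RN and Adjacent libraries as control there were 5, after centring on the other 19 regions 1 (HES2-p), and with 1 library left out 2 to 6, the 6 without the first dCas9-p300(core) library. HES2-2 with dCas9-VP16(10x) was lost with a pseudocount 4 times smaller (limma adjusted p = 0.0598), and HES2-1 with dCas9-p300(core) without either Adjacent library (0.0906). HES2-3 with dCas9-VP16(10x) passed with a pseudocount 4 times larger (0.0489), with the paired columns as 2 replicates (0.0379), with IL1RN and Adjacent as control (0.0337) and without either dCas9-p300(core) library (0.00138 and 0.00156). HES2-2 and HES2-3 with dCas9-p300(core) passed without the first of these (0.00105 and 0.000883), and HES2-3 also with IL1RN and Adjacent as control (0.0337). For H3K27ac there were 0 in the fit described and 0 to 0 with each library left out, and 1 with IL1RN and Adjacent as control and 1 with the identifier as a block. RNAPII differences and differences between constructs stayed at 0, also with each library left out (0 to 0). The pool test had 0 calls, 2 after centring and 0 to 1 with 1 library left out. With an overlap of at least 500 bp, HA peaks remained at HES2-1 in 4 libraries, HES2-3 in 3 and HES2-p in 2, H3K27ac peaks at HES2-2 in 3, and RNAPII peaks at HES2-1 in 5 and HES2-2 in 0. With −log10 q of at least 20, HA peaks at HES2-p were left in 2 libraries and RNAPII peaks at HES2-2 in 5. The cause was not tested. Of 3724 log2 differences under an alternative, 198 had the opposite sign, 140 with a library left out and 58 otherwise, and none of them was past the threshold before or after. Centring moved the differences by 2.06 to 2.14 for HA, by -0.19 to 1.62 for H3K27ac and by -0.28 to 0.50 for RNAPII; RNAPII at HES2-2 with dCas9-p300(core) and Pool 1 went from 0.49 to -0.01.

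With the replicate number as a block, 1 H3K27ac difference was called (HES2-2 with dCas9-p300(core) and Pool 1, limma adjusted p = 0.0447). For HA the block was fitted with the paired column numbered 2 alone. HES2-1 with dCas9-p300(core) was then lost (log2 difference 2.18), and the part of each change in this was not tested. In H3K27ac number 1 carries the identifier and number 2 none in every pool and IL1RN set, so there the number follows the identifier. The deviations of same-numbered libraries correlated above 0.1 in 33 of 45 pairs of groups in H3K27ac (lowest -0.648), and without the Adjacent set of dCas9-VP16(10x) in 33 of 36 (median 0.38, lowest -0.123). In RNAPII they did in 17 of 45 (lowest -0.615), and without that set in 12 of 36. The single HA IL1RN library and the merged HA library could not be left out, and the count model listed as an alternative was not run. Averaging pairs, leaving out both doubted libraries, the identifier block for the difference between constructs and the exchange within identifier were chosen after seeing the data. Few reads at HES2-2, 8 in the lowest H3K27ac library, limit what can be detected there; the reads carry no molecular identifiers.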
